A study of Mus musculus with 18 samples.

Results

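Mitochondrial ribosomal protein genes encode the proteins of the mitoribosome, the ribosome inside mitochondria that translates the few messenger RNAs of the mitochondrial genome into core subunits of the respiratory chain. The genes lie in the nucleus, and their products are made on cytosolic ribosomes and imported. Protein-coding genes were taken whose symbol in the GRCm38 annotation begins with Mrpl or Mrps and a number, and symbols of pseudogenes were left out. The rule gave 78 of the 34989 genes, 49 of them named Mrpl and 29 named Mrps, spread over 17 chromosomes.

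The names do not map onto the subunits in every case. In the mammalian mitoribosome the products of Mrps30 and Mrps18a sit in the large subunit, so that 51 of the genes belong to the large and 26 to the small subunit. Mrps36 is kept because of its name, although its product belongs to the 2-oxoglutarate dehydrogenase complex and not to the ribosome. Of the 77 ribosomal members, 46 have a counterpart in bacterial ribosomes and 31 are found in mitochondrial ribosomes alone. These roles were assigned from general knowledge. The heart is rich in mitochondria, and inherited defects of MRPL3 or MRPL44 are known causes of cardiomyopathy in people.

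RNA was measured in the left (LV) and right ventricle (RV) of C57B/L6 mice, which the labels give as 12 weeks old. Hearts were flushed with HTK, a cold preservation solution, stored in it on ice for 0, 4, or 8 h, and then perfused with warm Krebs buffer outside the body for 60 min before both ventricles were frozen. The 0 h hearts were flushed and perfused in the same way, so that no group is a fresh, unperfused heart. Each of the 6 groups held 3 libraries, sex is not given in the labels, and the study's methods state another age and that mice of both sexes were used. The comparisons address how transcripts respond to the time in cold storage and whether the ventricles differ in this.

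The 18 libraries held between 22552581 and 46236771 estimated counts, of which the 78 genes took 0.209% to 0.331%. The heart muscle markers Myh6, Tnnt2, Tnni3, Actc1, Myl2, Myl3 and Ryr2 were above 0 in all libraries. The libraries of heart 3 at 8 h stood apart from the rest. In RV replicate 3 at 8 h the summed level of the 7 heart muscle markers was 28957 CPM (estimated counts scaled to a common library size with TMM factors), against 42770 to 67532 CPM in the other 17 libraries. Of the estimated counts of other protein-coding genes in that library, 9.29% lay in transcripts that are not annotated as protein-coding, against 5.51% to 7.92% elsewhere. The main results at 8 h are given with and without the libraries of this heart.

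Promoter stretches are shown for 6 of the genes whose transcript levels in LV and RV are described below. RefSeq windows of 300 bases, 250 before to 50 after the start of transcription, were found for 69 of the 78 genes (build GRCm38.p6). They were searched on both strands for TGCGCA, the core of the NRF1 site, for CCGGAAG, the core bound by GABPA and other ETS factors, for AAGATGGC, the core of the YY1 site, and for TATAAA, the TATA box. NRF1, GABPA and YY1 are known as regulators of nuclear genes for mitochondrial proteins. The stretches below lie before the start site and run 5′ to 3′ on the strand of the gene, with TGCGCA and CCGGAAG (or its complement CTTCCGG) in capitals.
Mrpl43: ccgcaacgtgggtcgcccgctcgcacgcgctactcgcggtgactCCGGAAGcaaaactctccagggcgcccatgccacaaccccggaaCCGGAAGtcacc
Mrpl22: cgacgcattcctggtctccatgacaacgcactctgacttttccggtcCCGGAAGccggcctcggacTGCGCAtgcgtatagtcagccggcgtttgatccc
Mrpl44: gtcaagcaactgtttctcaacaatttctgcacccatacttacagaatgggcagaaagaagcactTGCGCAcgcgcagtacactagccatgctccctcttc
Mrps23: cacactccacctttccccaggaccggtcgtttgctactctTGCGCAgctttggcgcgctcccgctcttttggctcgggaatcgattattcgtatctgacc
Mrpl34: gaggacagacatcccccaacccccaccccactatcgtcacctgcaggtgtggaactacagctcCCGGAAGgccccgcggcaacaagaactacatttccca
Mrpl52: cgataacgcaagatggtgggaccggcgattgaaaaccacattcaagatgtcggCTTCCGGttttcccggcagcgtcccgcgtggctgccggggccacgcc

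These stretches lie at chr19:45006443-45006542 (minus strand) for Mrpl43, chr11:58171564-58171663 (plus) for Mrpl22, chr1:79775918-79776017 (plus) for Mrpl44, chr11:88204138-88204237 (plus) for Mrps23, chr8:71464826-71464925 (plus) for Mrpl34 and chr14:54426809-54426908 (plus) for Mrpl52. The ETS letters were in the window of 26 of the 69 genes (37.7%), against 9.93% of all 27025 genes in the promoter table and 18.2% of those that were also tested here. The NRF1 letters were in 21 windows (30.4%), against 8.79% of all genes and 14.6% of the tested ones. For YY1 the share was 17.4% among the 69, 3.19% overall and 4.80% among tested genes, whereas the TATA letters were in 7.25%, 15.7% and 9.85%. At least 1 of the NRF1, ETS and YY1 cores was in 63.8% of the windows of mitochondrial ribosomal genes, 64.2% of those of cytosolic ribosomal genes and 51.5% of those of nuclear respiratory chain genes. Each of the genes shown held NRF1 or ETS letters, and they do not stand for all genes described below. In the window of Mrpl39, for example, none of these cores was found. A match of letters is a description of the window and does not show that a factor binds there.

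Transcript levels per length spanned a wide range among genes whose proteins are held in 1 particle. The mean TPM (a level scaled by transcript length and by the library's total) over the 18 libraries had a median of 44.4 among the 78 genes, against 5.76 among all 15093 genes tested. It ran from 5.47 ± 1.51 (SD, n = 18) for Mrpl23, whose protein lies at the exit of the peptide tunnel, to 363 ± 46.8 for Mrpl42, a protein found in mitochondrial ribosomes alone, a 66.2-fold span. After Mrpl42 came Mrps21 with 240 TPM, Mrpl30 with 177 TPM, Mrpl33 with 147 TPM, Mrpl51 with 124 TPM, Mrpl12 with 115 TPM, Mrps36 with 104 TPM and Mrpl28 with 103 TPM. The lowest after Mrpl23 were Mrps30 (10.2 TPM), Mrpl1 (10.4 TPM), Mrpl11 (11.4 TPM), Mrpl19 (11.5 TPM), Mrps2 (12.3 TPM), Mrpl35 (14.4 TPM) and Mrps22 (14.8 TPM). In all 77 pairs of neighbours in this order the ranges over the 18 libraries overlapped. These ranges pool the groups, so that their overlap does not show that neighbours lay together within a group. In LV at 0 h, for example, the neighbours Mrpl42 and Mrps21 were at 402 ± 13.1 and 247 ± 12.7 TPM (SD, n = 3).

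**Figure D1:**
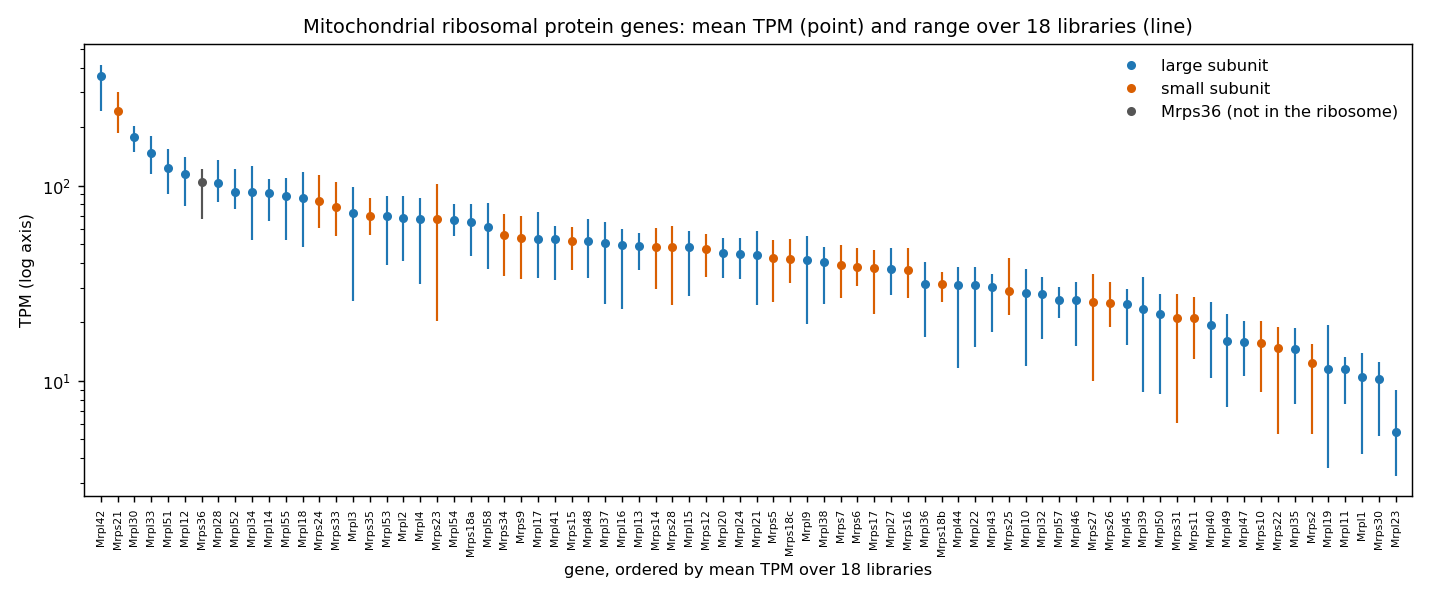
Mean TPM of each of the 78 genes over 18 libraries (points, log axis) with the lowest and highest library (lines), coloured by subunit and ordered by mean. Means fall from 363 TPM for Mrpl42 to 5.47 TPM for Mrpl23, and genes of the large and small subunits are mixed along the order.

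The subunits did not separate by level. Large-subunit genes had a median of 44.99 TPM and small-subunit genes of 40.5 TPM, while genes with a bacterial counterpart had a median of 44.7 TPM and genes particular to mitochondria of 31.1 TPM. The median was 318 TPM among 88 cytosolic ribosomal protein genes and 576 TPM among 86 nuclear genes of the respiratory chain. Genes for assembly and RNA modification of the mitoribosome had a median of 7.87 TPM (27 genes) and those for mitochondrial translation factors of 18.01 TPM (16 genes). Together the 78 genes made up between 2947 TPM in RV replicate 3 at 8 h and 5253 TPM in RV replicate 1 at 0 h.

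Much of the RNA assigned to some of these genes lay in transcripts without an annotated full reading frame. The 78 genes have 329 transcripts in the files, of which 164 are annotated as protein-coding, 83 as retained introns, 59 as processed transcripts and 23 as targets of nonsense-mediated decay. Over libraries, 11.8% to 15.98% of the members' estimated counts lay in transcripts other than protein-coding. For 53 genes this share averaged under 10%, and for 10 it was over 50%, with the highest in Mrps26 (76.8%), Mrpl32 (75.7%) and Mrpl3 (69.0%), named after their values were seen. A level of such a gene is therefore not the level of its coding messenger RNA.

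The share was highest in the libraries of heart 3 at 8 h, at 14.3% in LV and 15.98% in RV, against 11.8% to 13.8% in the other 16 libraries. In RV replicate 3 at 8 h the share for Mrps9, a small-subunit protein, was 42.2%, against 5.78% to 21.7% elsewhere. For Mrps35 it was 43.1%, against 17.5% to 32.4% elsewhere, and for Mrpl13 50.9%, against 21.4% to 40.5%. These 3 genes were chosen after their values were seen, and no test was made.

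**Figure D2:**
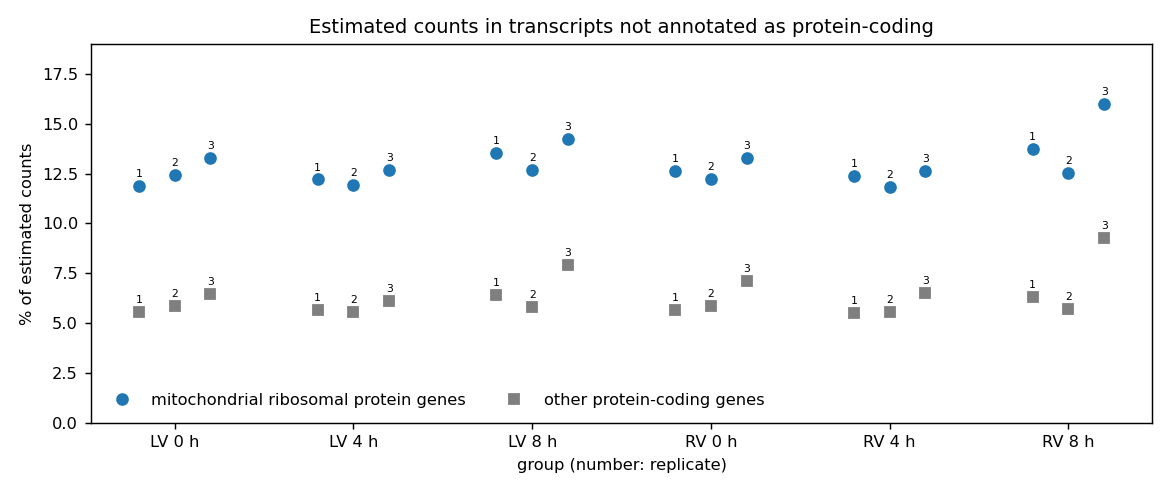
Percent of estimated counts in transcripts not annotated as protein-coding, for the 78 genes (blue) and all other protein-coding genes (grey), with 1 point for each library and the replicate number above it. Replicate 3 of RV at 8 h is the highest in both sets, at 15.98% and 9.29%.

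Few of these genes passed a test of cold storage against 0 h, in samples where fewer cells of a type and less RNA per cell cannot be told apart. The quasi-likelihood test of edgeR was used, and a gene was said to rise or fall when its Benjamini-Hochberg adjusted p over all tested genes was under 0.1. All 78 genes passed the filter on low counts. After 4 h no member rose or fell in LV, where 2.49% of all 14564 tested genes rose and 0.494% fell by this edgeR test, and 1 member had an unadjusted p under 0.05. In RV none rose or fell either, beside 6.56% and 4.34% of 14622 genes, and no member had an unadjusted p under 0.05. DESeq2, the tool the study used, also called no member at 4 h in either ventricle. The median log2 fold change of the members was 0.06 in LV and 0.07 in RV, with medians of -0.00 and 0.00 over all genes.

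After 8 h, 1 member rose in LV and another in RV, and none fell. Of all genes 6.1% rose and 2.34% fell in LV, and 13.9% rose and 7.19% fell in RV. DESeq2 called 5 higher and 1 lower in LV, where it called 9.55% of all genes higher and 5.5% lower, and 1 higher in RV, beside 16.1% and 7.71%. The median log2 fold change of the members was 0.10 in LV (quartiles -0.04 and 0.17) and -0.13 in RV (quartiles -0.26 and -0.06), where the medians over all genes were -0.02 and -0.07. Without RV replicate 3 at 8 h the median in RV was -0.025, beside -0.034 over all genes, and it was -0.05 without RV replicate 3 at 0 h and -0.24 without RV replicate 2 at 0 h. In LV it lay between 0.023 (without replicate 2 at 0 h) and 0.15 (without replicate 3 at 0 h), and at 0.045 without replicate 1 at 8 h. The summed heart muscle markers moved with storage. In LV they went from 56092 to 67532 CPM at 0 h to 42770 to 49668 CPM at 8 h. In RV they went from 58606 to 66787 CPM to 28957 to 55148 CPM. Myh6 held the largest part of these sums. Its level in LV was 38214.5, 34985.9 and 29966 CPM at 0 h and 23195.8, 24077.9 and 19030.1 CPM at 8 h. For each of the other markers of this list, among them Tnni3 and Myl2, the 0 h and 8 h libraries of LV overlapped. The part of these markers in the result was not tested. Of the 78 genes 15 had a positive fold change in both ventricles, 25 a negative one in both, 38 a positive one in LV and a negative one in RV, and none the reverse. Negative in RV were 63 genes in all, and 49 without RV replicate 3 at 8 h. The comparison of 8 h with 4 h gave no called gene of any kind, and 4 members in LV and 3 in RV had an unadjusted p under 0.05 in edgeR.

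The gene that rose in LV was Mrpl52, a large-subunit protein particular to mitochondria (chr14:54426909-54429756, plus strand). Its level in LV was 14.9, 14.9 and 17.1 CPM at 0 h, 19.9, 16.97 and 23.1 CPM at 4 h and 27.2, 20.6 and 26.3 CPM at 8 h. All 8 h libraries lay above all 0 h libraries. The log2 fold change was 0.66 (SE 0.15, adjusted p = 0.0513 in edgeR). In RV Mrpl52 was at 17.04, 14.1 and 19.8 CPM at 0 h and 26.2, 18.3 and 24.7 CPM at 8 h, with overlapping groups and a log2 fold change of 0.46 (SE 0.19, adjusted p = 0.142 in edgeR). Leaving out any 1 library of LV at 0 h, or replicate 1 or 3 of LV at 8 h, ended the call in LV, with adjusted p between 0.118 and 0.208 in edgeR.

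The gene that rose in RV was Mrps6, a small-subunit protein with a bacterial counterpart (chr16:92058270-92112227, plus strand). Its level in RV was 19.9, 17.2 and 18.9 CPM at 0 h, 27.1, 20.4 and 23.9 CPM at 4 h and 28.5, 20.5 and 34.1 CPM at 8 h. The libraries of both storage times lay above all 0 h libraries. The log2 fold change after 8 h was 0.59 (SE 0.20, adjusted p = 0.0892 in edgeR). In LV it was 19.5, 17.9 and 18.8 CPM at 0 h and 24.1, 22.4 and 28.9 CPM at 8 h, with no overlap, a log2 fold change of 0.43 (SE 0.13) and an adjusted p of 0.102 in edgeR. The call in RV ended without any 1 of 8 of the 9 RV libraries, RV replicate 2 at 8 h being the exception, with adjusted p between 0.102 and 0.251 in edgeR. Mrps6 overlaps Slc5a3, a myo-inositol transporter gene on the same strand, and how shared reads were divided between them cannot be read from the files.

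Further genes with large estimates did not reach the threshold. Mrpl33, a small protein of the large subunit, had a log2 fold change of 0.50 (SE 0.23, adjusted p = 0.170 in edgeR) in RV after 8 h. Its level there was 68.1, 41.9 and 52.1 CPM, above the 41.6, 34.5 and 39.6 CPM at 0 h. Among the largest positive estimates in LV were also Mrpl34 (0.39, adjusted p = 0.140 in edgeR), Mrpl54 (0.37, 0.135) and Mrpl12 (0.34, 0.163), the last a stalk protein known also to bind the mitochondrial RNA polymerase. In these 3 genes the 8 h libraries of LV lay above the 0 h libraries, as for 11 members in all, or 14.1% of the 78, beside 15.5% of all genes.

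The most negative estimates were those of Mrpl39 and Mrps31, both particular to mitochondria, and neither passed the test. Mrpl39 was at 51.8, 53.3 and 50.2 CPM in RV at 0 h, 41.1, 41.4 and 49.1 CPM at 4 h and 33.7, 46.9 and 19.6 CPM at 8 h. The RV libraries after storage lay below all those at 0 h, with a log2 fold change of -0.63 (SE 0.25, adjusted p = 0.132 in edgeR) after 8 h. In LV the change was -0.34 (SE 0.16, adjusted p = 0.234 in edgeR). Mrps31 had log2 fold changes of -0.58 (SE 0.29) in RV and -0.41 (SE 0.14) in LV, with adjusted p of 0.207 and 0.129 in edgeR. In RV after 8 h Mrpl10, Mrpl44 and Mrpl22 followed, at -0.46, -0.44 and -0.43, none past the threshold. Without RV replicate 3 at 8 h the estimates were -0.35 for Mrpl39, -0.24 for Mrps31, -0.24 for Mrpl10, -0.18 for Mrpl44 and -0.25 for Mrpl22. Below all 0 h libraries in RV after 8 h were 9 members (11.5% of the 78, beside 17% of all genes). RV replicate 3 at 8 h was the lowest library in each of these 9, among them Mrpl39, Mrps31, Mrpl44 and Mrpl22.

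Mrpl44 and Mrpl3, the genes known from human cardiomyopathy, did not pass the test. In RV after 8 h Mrpl44, which carries an RNase III-like fold, changed by -0.44 (SE 0.22) and Mrpl3, a core protein of the large subunit, by -0.31 (SE 0.24), or by -0.18 and -0.04 without RV replicate 3. In LV the values were -0.07 (SE 0.13) and -0.21 (SE 0.13). Mrpl58, a member that can release peptides from stalled ribosomes, changed by -0.04 (SE 0.13) in LV and -0.24 (SE 0.19) in RV. Mrps12 and Mrps5, whose bacterial counterparts take part in the accuracy of decoding, changed by 0.18 (SE 0.14) and -0.05 (SE 0.09) in LV and by -0.06 (SE 0.18) and -0.31 (SE 0.15) in RV.

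**Figure D3:**
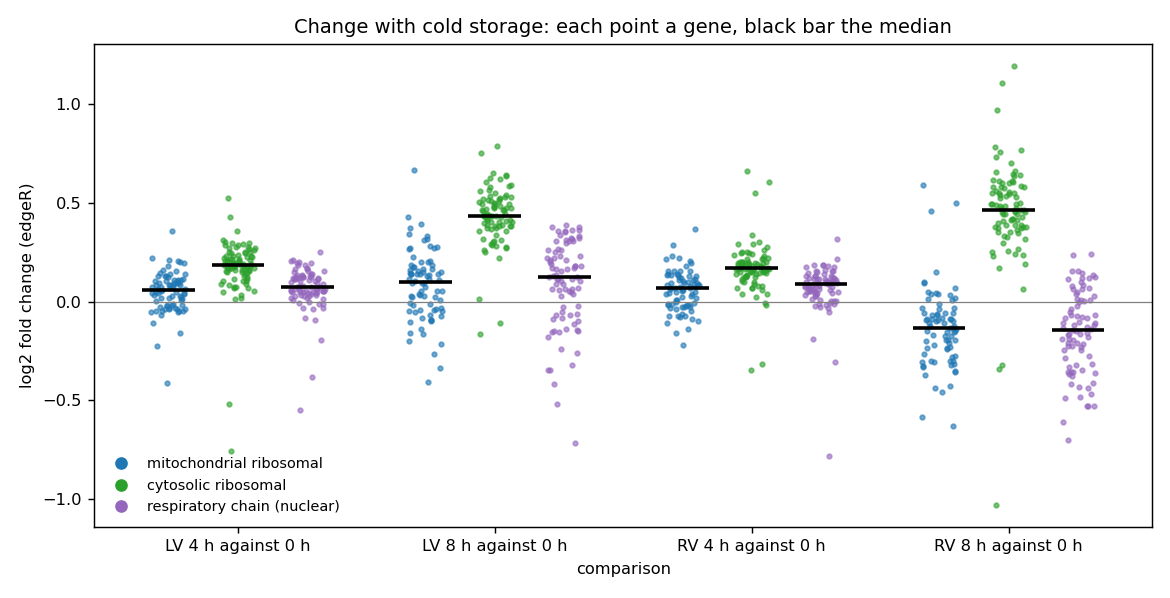
Log2 fold change of each gene (points) after 4 h and 8 h of storage against 0 h in LV and RV, for mitochondrial ribosomal, cytosolic ribosomal and nuclear respiratory chain genes, with the median of each list as a black bar. Medians of mitochondrial ribosomal genes lie near those of respiratory chain genes, at 0.10 and 0.12 in LV and -0.13 and -0.14 in RV after 8 h, while cytosolic ribosomal genes lie at 0.43 and 0.46.

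Beside the mitochondrial ribosomal genes, the cytosolic ribosomal protein genes had higher fold changes after 8 h. Their median was 0.43 in LV and 0.46 in RV, with 9 and 10 of 87 tested genes past the threshold, all higher. Of all genes 6.1% rose and 2.34% fell in LV, and 13.9% rose and 7.19% fell in RV. The called share of cytosolic ribosomal genes in RV thus lay below that of all genes. Nuclear genes of the respiratory chain had medians of 0.12 and -0.14, with 1 of 83 lower in LV and none called in RV. The 13 protein-coding genes of the mitochondrial genome, whose messenger RNAs the mitoribosome translates, had a median of 0.48 in each ventricle, with 8 higher in LV and 2 in RV. Their share of all counts moved with this, from 22.6% to 32.5% at 0 h to 31.9% to 34.3% at 8 h. As a share of all counts the 78 genes took 0.310% ± 0.0215 (SD, n = 3) in LV at 0 h and 0.298% ± 0.0301 at 8 h, so that the small positive median in LV after TMM scaling corresponds to a negative difference on this scale. In RV the share was 0.310% ± 0.0264 at 0 h and 0.242% ± 0.0301 at 8 h.

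The genes that assemble the mitoribosome and those that help it translate mostly had negative fold changes in RV after 8 h (24 of 27 and 15 of 16), and few passed the test. Of all genes 7.19% fell in RV and 2.34% in LV, and in RV the shares called lower in these lists lay near that. Assembly genes had a median log2 fold change of -0.31 in RV, with 2 of 27 called, both lower. They were Mettl17, an assembly factor of the small subunit (-0.78, adjusted p = 0.01996 in edgeR), and Mtg1, a GTPase of the large subunit (-0.49, adjusted p = 0.0836). Without RV replicate 3 the median was -0.08 and Mettl17 alone passed (-0.64, adjusted p = 0.0503 in edgeR). In LV the median was -0.10 and Mettl15, which modifies the small-subunit RNA, was lower (-0.52, adjusted p = 0.0910 in edgeR). Translation factors had a median of -0.41 in RV with 1 of 16 called, the formyltransferase of the initiator tRNA Mtfmt (-0.55, adjusted p = 0.0867 in edgeR), and of -0.17 in LV with none called. Without RV replicate 3 the median in RV was -0.16 and none was called. The 5 mitoribosomal proteins with other names (Dap3, Ptcd3, Chchd1, Aurkaip1 and Gadd45gip1) had medians of 0.10 in LV and -0.16 in RV, and none was called.

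The list of regulators held 14 genes that act in mitochondrial transcription or on nuclear genes for mitochondria. Among them the transcription factor Myc rose in RV by 2.61 after 4 h and 2.87 after 8 h on the log2 scale (adjusted p = 0.00539 and 0.00165 in edgeR). In LV Myc rose by 1.67 after 4 h (adjusted p = 0.0774 in edgeR). Gabpb1, the partner subunit of the ETS factor GABPA, rose by 1.11 in LV and 1.59 in RV after 8 h (adjusted p = 0.0351 and 0.00375 in edgeR). Pprc1, a coactivator of the PGC-1 family, rose in RV by 1.48 (adjusted p = 0.00853 in edgeR), whereas its relative Ppargc1b fell in LV by 0.62 (adjusted p = 0.0520), as did the mitochondrial RNA polymerase Polrmt by 0.40 (adjusted p = 0.0910). No relation between these factors and the members was tested.

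The ventricles were then compared at each storage time. An LV and an RV library of the same time and number deviated together from their group means (mean correlation 0.535, lowest 0.325, over 9 pairs). The mean of -0.258 for libraries of other numbers largely follows from this, since deviations cancel within a group, and is no separate evidence. Same-numbered LV and RV libraries of different times, which are of different hearts, also correlated, by 0.217 on average (0.0483 to 0.560). The 0.535 thus does not by itself show a shared heart. The study took both ventricles of a heart, and with this a number was taken to name a heart. The fit with the heart as a block is given beside the fit without it. At 0 h no member differed with or without the block, beside 2.11% of all 15093 genes higher and 1.99% lower in LV with the block and 0.0729% and 0.0861% without it. At 4 h again none differed, beside 2.16% and 3.11% with the block and 0% and 0.0133% without it. With the block 3 members at each time had an unadjusted p under 0.05 in edgeR, and without it none had. The largest differences with the block were in Mrps14 at 0 h (0.26, SE 0.08, adjusted p = 0.145 in edgeR) and Mrpl20 at 4 h (0.21, SE 0.07, adjusted p = 0.117).

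At 8 h the members were higher in LV. Without the block none of the 78 differed by edgeR's test, although 15 had an unadjusted p under 0.05, and 0.0133% of all genes were higher and 0.0199% lower. With the block 53 of the 78 were higher in LV and none was lower, or 67.9% of the members beside 15.5% of all genes higher and 16.5% lower. None of the 53 differed by more than 1.5-fold. The median log2 difference was 0.24 with the block and 0.23 without it, where the medians over all genes were 0.02 and 0.01. The called genes were 35 of the 51 large-subunit genes and 18 of the 26 small-subunit genes, with medians of 0.24 in each. Of genes with a bacterial counterpart 36 of 46 were called, and of those particular to mitochondria 17 of 31, with medians of 0.24 and 0.25.

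The direction was shared by the 3 hearts at 8 h. The median difference of the members between LV and RV of a heart, on the scale of log2(CPM + 0.5), was 0.16 in heart 1, 0.17 in heart 2 and 0.39 in heart 3, with medians of all genes at 0.00 in each. Higher in LV in all 3 hearts were 65 of the 78 genes, or 83.3%, beside 24.6% of all genes, and lower in all 3 was none, beside 24.1%. At 0 h the 3 hearts had medians of -0.01, 0.05 and -0.04, and 12 genes (15.4%, beside 20.7%) were higher in LV in all 3. At 4 h the medians were -0.06, 0.06 and 0.07, and the count was 8 (10.3%, beside 21.4%).

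**Figure D4:**
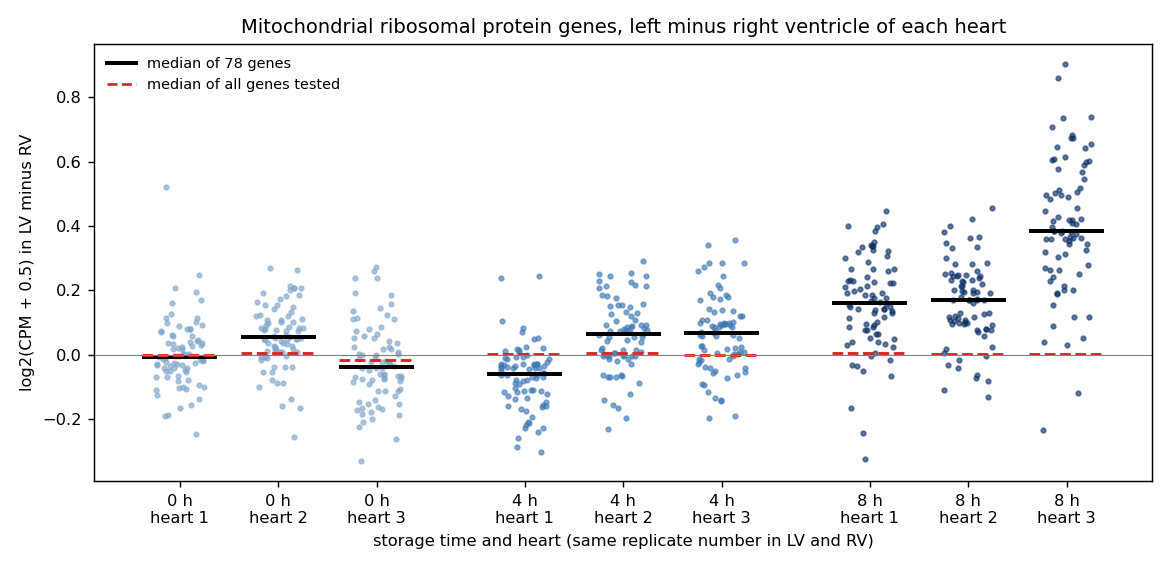
Difference between LV and RV of the same heart for each of the 78 genes (points), on the scale of log2(CPM + 0.5), with the median of the 78 genes (black bar) and of all genes tested (red dashed bar). The medians of the 78 genes lie between -0.06 and 0.07 in the 6 hearts of 0 h and 4 h and at 0.16, 0.17 and 0.39 in the hearts of 8 h.

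Without heart 3 at 8 h the fit with the block called 29 members higher and none lower, beside 12.3% and 16% of all genes, and the median was 0.17. Without heart 1 the count was 35 higher (beside 8.04% of all genes), and without heart 2 it was 52 higher and 1 lower (beside 16.9% and 15.3%). With counts of protein-coding transcripts alone 49 members were higher and none lower, beside 14.7% and 15.5% of all genes, and the median was 0.27. The summed heart muscle markers at 8 h were 47762, 49668 and 42770 CPM in LV and 47685, 55148 and 28957 CPM in RV of hearts 1 to 3, so that RV was lower in heart 3, higher in heart 2 and nearly equal in heart 1. Myh6 held the largest part of these sums. Of the single markers, Tnni3, Actc1, Myl2 and Myl3 were higher in LV in each heart, while Myh6, Tnnt2 and Ryr2 had no shared direction. The 5 fibroblast markers summed to 797, 583 and 639 CPM in LV and 1182, 648 and 754 CPM in RV of hearts 1 to 3. The 5 macrophage markers summed to 155, 110 and 84.9 CPM in LV and 230, 139 and 103 CPM in RV, and the 4 markers of smooth muscle and pericytes to 889, 781 and 898 CPM in LV and 930, 793 and 1220 CPM in RV. RV was thus the higher ventricle for these 3 sums in each of the 3 hearts at 8 h. The single genes Col1a1, Lum, C1qa, Myh11, Rgs5 and Pdgfrb went the other way in some hearts. The fibroblast and macrophage sums were higher in RV in each heart at 0 h and 4 h as well, where no member differed. At 0 h they were 488 to 556 and 82.3 to 129 CPM in LV and 607 to 682 and 110 to 171 CPM in RV. The smooth muscle and pericyte sums had no shared direction at 0 h or 4 h. The 5 endothelial markers (583 to 830 CPM in LV and 526 to 770 CPM in RV) had no shared direction at 8 h. Nor had the 4 atrial markers (263 to 357 and 119 to 800 CPM). The 3 neutrophil markers summed to at most 9.59 CPM, with Ly6g above 0 only in LV replicate 1 at 8 h (0.123 CPM). The 3 lymphocyte markers summed to at most 1.05 CPM and the 3 red cell markers to at most 121 CPM. At 8 h these 3 sums were higher in LV in each heart, but the neutrophil and lymphocyte sums lay near the floor. The part of cell makeup in the difference was not tested.

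The genes with the largest differences over the 3 hearts were Mrpl44, Mrpl53, Mrpl22 and Mrps23. Without heart 3 the largest were Mrpl53 (0.38), Mrpl20 (0.37), Mrpl43 (0.37) and Mrps18a (0.36), while Mrpl22, Mrps23 and Mrpl44 were at 0.31, 0.29 and 0.26 and still passed the test with the block. Mrpl53, particular to mitochondria (chr6:83109040-83109939, plus strand), was at 42.1, 34.5 and 32.9 CPM in LV and 32.2, 26.7 and 22.0 CPM in RV of hearts 1 to 3 at 8 h. LV was the higher ventricle in each heart, the lowest LV library lay above the highest RV library, and the log2 difference was 0.44 (SE 0.07, adjusted p = 0.00151 with the block and 0.352 without it in edgeR). At 0 h LV held 33.1, 25.6 and 32.4 CPM and RV 33.2, 25.3 and 31.5 CPM. Mrpl44 (chr1:79776018-79781445, plus strand), shown above with its NRF1 letters and overlapping Wdfy1 on the other strand, was at 36.2, 38.7 and 29.4 CPM in LV and 30.02, 32.8 and 15.96 CPM in RV. Its log2 difference was 0.45 (SE 0.11, adjusted p = 0.0128 with the block in edgeR), and heart 3 gave 0.86 against 0.26 and 0.24 in hearts 1 and 2.

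Mrpl22, a protein that lines the peptide tunnel (chr11:58171661-58179565, plus strand), was at 16.8, 15.02 and 13.7 CPM in LV and 13.4, 12.3 and 8.37 CPM in RV at 8 h. All LV libraries lay above all RV libraries, with a log2 difference of 0.43 (SE 0.10, adjusted p = 0.00860 with the block in edgeR). Mrps23, a small-subunit protein (chr11:88204388-88211507, plus strand), was at 57.8, 53.0 and 41.2 CPM in LV and 49.2, 41.5 and 25.003 CPM in RV. LV exceeded RV in each heart while the groups overlapped, and the log2 difference was 0.43 (SE 0.10, adjusted p = 0.00920 with the block in edgeR). Mrpl43, with 2 ETS cores in the stretch above, and Mrps34, named after their values were seen for their small adjusted p, differed almost equally in the 3 hearts. The log2 differences in hearts 1 to 3 were 0.31, 0.42 and 0.42 for Mrpl43 and 0.34, 0.30 and 0.38 for Mrps34, with adjusted p of 0.00281 and 0.00282 with the block in edgeR. Mrpl43 overlaps Twnk, the gene of the mitochondrial DNA helicase, on the other strand, and Mrps34 overlaps Mapk8ip3 and Nme3, 1 of them on its own strand.

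**Figure D5:**
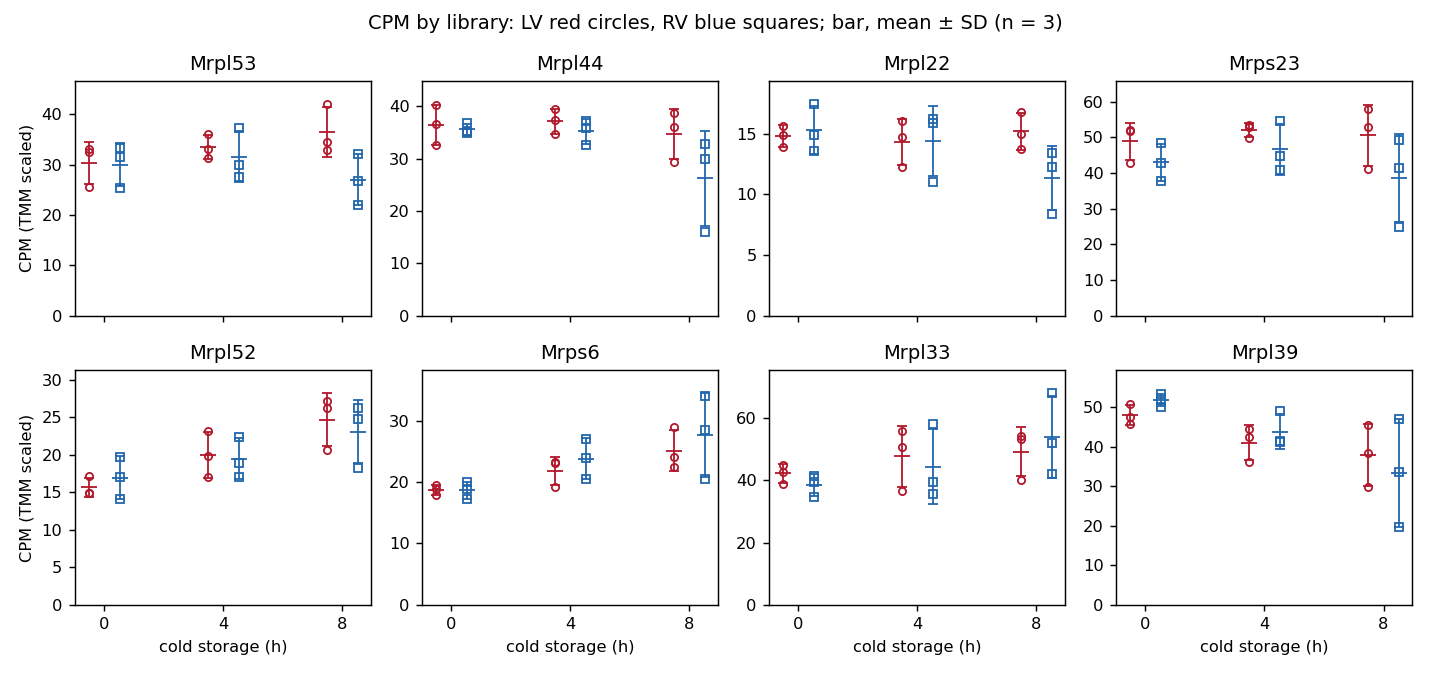
CPM of 8 genes in each library by hours of cold storage, in LV (red circles) and RV (blue squares), with mean and SD (n = 3). In the upper row (Mrpl53, Mrpl44, Mrpl22, Mrps23) RV has the lower mean at 8 h, and in the lower row Mrpl52, Mrps6 and Mrpl33 have higher means and Mrpl39 lower means at 8 h than at 0 h in both ventricles.

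Members with roles of their own were examined next. Mrps18a, a protein of the large subunit despite its name, was higher in LV by 0.38 (SE 0.07, adjusted p = 0.00395 with the block in edgeR), and its relatives Mrps18b and Mrps18c, which occupy the small subunit, by 0.21 and 0.26 (adjusted p = 0.0667 and 0.0696). The early assembly proteins Mrps16 and Mrps2 differed by 0.34 and 0.37, Mrps30 by 0.28 and Mrpl41 by 0.24, all past the threshold with the block. Mrpl12 was higher by 0.23 and Mrpl3 by 0.31 (adjusted p = 0.0413 and 0.0709 with the block in edgeR). Mrpl3 differed by 0.09, 0.11 and 0.74 in hearts 1 to 3, and without heart 3 it was at 0.10 (adjusted p = 0.348 in edgeR) and no longer passed. Mrpl12, Mrpl41 and Mrps18c also did not pass without heart 3, at 0.17, 0.17 and 0.28. Mrps12 (0.23, SE 0.10), Mrps22 (0.22, SE 0.12), Mrpl58 (0.12, SE 0.07) and Mrps36 (0.15, SE 0.07) did not pass.

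Only Mrps6, Mrpl33, Mrpl48 and Mrpl23 had a lower estimate in LV than in RV at 8 h, at -0.12 (SE 0.08), -0.12 (SE 0.09), -0.05 (SE 0.07) and -0.01 (SE 0.18) with the block, and none passed the test. The sign of the first 3 turned when single RV libraries of 8 h were left out. Mrps6 and Mrpl33 also had the largest positive estimates in RV after 8 h, where only Mrps6 passed the test. Mrps31, in contrast, had differences of -0.07 and -0.00 in hearts 1 and 2 and of 0.90 in heart 3.

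Other gene lists were compared in the same fits. With the block at 8 h, 21 of 83 nuclear respiratory chain genes were higher in LV and none lower, with a median of 0.19, and 71.1% of them were higher in LV in all 3 hearts. Of all genes 15.5% were higher and 16.5% lower in this fit, and 24.6% were higher in LV in all 3 hearts. Of cytosolic ribosomal genes 1 of 87 was higher and 3 were lower, with a median of -0.07, and 3.45% were higher in LV in all 3 hearts. Of the 13 mitochondrially encoded genes none was called and the median was -0.08. Of the translation factors 8 of 16 were higher (median 0.29), among them Mtfmt (0.44) and the elongation factor Tsfm (0.46), and of the assembly genes 7 of 27 (median 0.16), among them Mtg1 (0.37) and Mettl17 (0.36). Aurkaip1 and Chchd1, 2 of the 5 mitoribosomal genes with other names, were higher by 0.27 and 0.22. Without heart 3 the counts were 11 of 83 higher for respiratory chain genes (median 0.11), 5 higher and 1 lower for translation factors (median 0.07) and 3 higher for assembly genes (median 0.09). Of all genes 12.3% were then higher and 16% lower, so that the respiratory chain and assembly counts lay near the share of all genes. In the regulators 1 was higher, Tfb2m (0.33), and 5 were lower in LV, Myc (-0.84), Pprc1 (-0.66), Gabpb1 (-0.47), Ppargc1b (-0.31) and Yy1 (-0.15). The NRF1 letters were in 32.6% of windows of the 53 called members and in 26.1% of those of the other 25, and the ETS letters in 37.0% and 39.1%, which was not tested. Genes of these lists that had no call in a storage comparison were named after their values were seen.

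Whether the change from 0 h to 8 h itself differed between the ventricles was tested as an interaction. Without the block no gene of any kind passed, and no member had an unadjusted p under 0.05 in edgeR. With the block 13 members had a more positive change in LV than in RV and none a more negative one, or 16.7% beside 3.55% and 8.02% of all genes. The median of the members was 0.24, where that over all genes was 0.04. Mrpl34, a small protein with a bacterial counterpart, had the largest difference (0.51, SE 0.11, adjusted p = 0.0219 in edgeR), followed by Mrpl22 (0.48, SE 0.13, adjusted p = 0.0552). Mrpl34 was at 32.9, 28.02 and 34.999 CPM in LV and 35.9, 29.7 and 37.1 CPM in RV at 0 h, and at 49.2, 39.0 and 37.4 CPM in LV and 40.2, 30.9 and 24.4 CPM in RV at 8 h. LV was thus the lower ventricle in each heart at 0 h and the higher one in each heart at 8 h. The count of 13 rests on single hearts, since without heart 1, 2 or 3 at 8 h it was 6, 18 and 9, beside 0.954%, 5.67% and 4.96% of all genes with a more positive change in LV, and without heart 1, 2 or 3 at 0 h it was 1, 6 and 2, beside 0.561%, 1.29% and 0.816%.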

How the data were processed

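For each of the 18 libraries the authors deposited estimated counts (expected counts) and TPM per transcript, with transcript length and effective length, made with Kallisto on GRCm38 transcripts (the annotation release is not given in the sources used here). Here 110203 of 111462 transcripts were matched to GENCODE M21 genes, summed and rounded. 1259 were left out. Lengths entered only the length offsets and TPM entered no test. Groups came from the sample titles. Genes were filtered with filterByExpr, given TMM factors and fitted in edgeR 4.0.16 (R 4.3.3; quasi-likelihood test), on the 9 libraries of a ventricle for storage times and on all 18 between ventricles, with Benjamini-Hochberg adjustment. Comparisons with 0 h share the 0 h libraries. DESeq2 1.42.0, RLE factors, no filter, length offsets, mt- genes left out, the replicate block, all 18 libraries in 1 fit, each library left out, a fold over 1.5 and an adjusted p under 0.05 were alternatives. The block without single hearts, combined with other choices, and protein-coding transcripts alone were added after the data had been seen. The tests were checked on simulated counts. Python 3.11.15 with pandas 2.3.3 summed the transcripts.

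The members, the lists and the rules were chosen with earlier results of these data known. Named were the 6 largest rises and falls against 0 h, the 4 largest differences between ventricles, the 8 highest and lowest by TPM, members past both thresholds, 16 genes with known roles, and called genes of the other lists, up to 6 a list. Of 42 members that overlap another gene 36 do so on the other strand. The study's methods give default settings for Kallisto and name no strand option, and Kallisto divides ambiguous reads between transcripts. For no member were there fewer than 70.2 estimated counts in a library. The labels do not say that hearts of a group came from separate experiments, and p-values measure the spread between these samples.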

Additional observations from a re-analysis of the deposited data

Results flagged for a closer look

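The change from 0 h to 8 h differed between LV and RV for 13 of the 78 members. The test was the interaction with the heart as a block in edgeR. All were more positive in LV, beside 3.55% of all genes more positive and 8.02% more negative. Without the block no gene passed. Without heart 1, 2 or 3 at 0 h the count was 1, 6 and 2, beside 0.561%, 1.29% and 0.816% of all genes. Mrpl34 and Mrps36, whose product is not part of the ribosome, were lower in LV in each heart at 0 h. The log2 differences between the changes were 0.51 for Mrpl34, 0.42 for Mrpl53, 0.40 for Mrpl43, 0.36 for Mrps34, 0.34 for Mrps36, 0.48 for Mrpl22, 0.44 for Mrpl2, 0.37 for Mrpl14, 0.38 for Mrpl49, 0.33 for Mrpl18, 0.30 for Mrps24, 0.38 for Mrpl10 and 0.28 for Mrpl20. With 3 libraries in each group no library was tested for standing apart within its group.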

How the results depend on the processing

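With the replicate block 53 members differed between LV and RV at 8 h and 13 in the interaction. With the block these counts, all higher in LV, were 47 and 10 with RLE factors (beside 13.6% and 2.88% of all genes higher), 35 and 5 with length offsets (11.1% and 1.52%), 51 and 7 without the filter (9.33% and 1.52%), 53 and 13 without mt- genes (15.6% and 3.53%), and 49 and 9 with protein-coding transcripts alone (14.7% and 2.43%). Leaving out single hearts gave 29 to 52 higher in LV at 8 h (beside 12.3% and 16.9% of all genes), with 1 lower without heart 2. In the interaction it gave 1 to 18 (beside 0.561% and 5.67%). Without the block no single library left out gave a call in either comparison. Across storage times the numbers name different hearts. Same-numbered libraries of a ventricle correlated by 0.233 on average (-0.0191 to 0.568), others by -0.113, and since not every pair was over 0.1 they were taken to share only a number. Same-numbered libraries that differed in both ventricle and time correlated by 0.217 on average (0.0483 to 0.560), others by -0.105. A number thus went with a shared deviation across times, whose source was not tested and which the main storage fits leave out. There the block gave 7 members higher in LV (beside 10.9% of all genes) and 3 higher and 2 lower in RV (beside 18.5% and 14.6%), 5 in all, after 8 h. The 1 call in LV after 8 h became 6 with DESeq2 and 0 at an adjusted p under 0.05, and 0 to 8 without single libraries. The 1 call in RV became 7 with all 18 libraries in 1 fit, 0 without the filter, with protein-coding transcripts alone or at an adjusted p under 0.05, and 0 to 9 without single libraries. The 8 calls in LV and the 9 in RV were those without replicate 2 at 8 h. The share of all genes called by DESeq2 is given above. For the other fits and for single libraries left out it is not set beside these storage counts. They show only that the calls depend on the fit, and not that the members differ from other genes. Between ventricles at 8 h, leaving out single libraries moved Mrps6 between -0.31 and 0.044, Mrpl33 between -0.28 and 0.063 and Mrpl48 between -0.11 and 0.055, with the positive values without RV replicate 3 for Mrps6 and RV replicate 1 for the others, and Mrpl48 was at 0.014 without heart 1 with the block. The causes were not tested. No median over the members moved by as much as 0.142, 1 SD between library means. That yardstick is larger than each median against 0 h, so it does not show that a sign held. Without single libraries the median reached -0.003 in LV and -0.027 in RV at 4 h against 0 h, and -0.022 in LV at 8 h against 4 h. The medians at 8 h against 0 h kept their sign in all alternatives. Precision is limited by 3 hearts a group and, for Mrpl23, by counts as low as 70.2.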
